A study of Mus musculus with 6 samples.

Results

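Cytosolic ribosomal proteins are the protein subunits of the ribosome that translates nuclear messages. They were chosen by symbol: rows named Rpl or Rps followed by a subunit number, Rplp followed by a number, or Rpsa, with the S6 kinases (Rps6k) left out. Of 6535 rows in the table, 77 matched, and 76 genes of 6532 were used: 46 of the large subunit and 30 of the small subunit. A second Rps4x row, annotated to a noncoding transcript (uc009etk.1, NR_003634), was set aside. Rpl29, Rplp2, Rps15a and Rps23 were not analysed here.

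The study measured messenger RNA, ribosome footprints and PKM2-bound RNA in E14 cells, an established line of mouse embryonic stem cells grown on gelatin with serum and LIF. Wild-type E14 cells were given an siRNA pool against PKM (siPKM) or a non-targeting pool (siCtrl) (20 nM, 36 h), with a passage 16 h ahead of harvest. PKM is pyruvate kinase, the enzyme that ends glycolysis. Each condition gave 1 library of total RNA depleted of ribosomal RNA and 1 library of ribosome-protected fragments (footprints, RPF), so no difference between conditions has a replicate check or a test. Cycloheximide, which holds ribosomes in place, was added at 100 µg/ml for 2 min to all of these cells, and footprints were cut with RNase A and RNase T1. The other 2 libraries were iCLIP replicates from E14 cells with FLAG-HA-tagged PKM2, irradiated with UV light at 0.35 J per cm2. iCLIP counts the places where reverse transcription stops beside a crosslinked base; no CLIP from untagged cells was used, and nothing in the labels says that the replicates were separate cultures.

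Each ribosome needs its proteins in nearly equal amounts, and a growing cell spends much of its translation on them. In mammals their messages begin with a 5' terminal oligopyrimidine (TOP) run, a C at the cap followed by C and T bases. Through it the mTOR kinase and the RNA-binding protein LARP1 control how strongly these messages load ribosomes. Messages of translation elongation factors share this start.

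Reads in the coding body, which leaves out the first 15 and the last 5 codons, summed to 10349212 in siPKM RNA, 12111993 in siCtrl RNA, 12545485 in siPKM RPF and 15175242 in siCtrl RPF. The CLIP replicates had 677534 and 670508 stops. Pkm2, the targeted gene, had 16371 coding RNA reads in siPKM and 60849 in siCtrl (log2 ratio -1.71). Of 10 stem cell markers 9 were used, with RNA ratios of -0.38 to 0.55 (median -0.06), 3 above and 6 below 0. Pou5f1 had 12857 RNA reads in siPKM and 14928 in siCtrl. Vim was the 1 gene of 5 on a fibroblast list that was used (3151 RNA reads in siPKM, 2777 in siCtrl, log2 ratio 0.36). On a trophoblast list 2 of 4 were used, Krt8 (355 reads in siPKM, 268 in siCtrl, 0.59) and Krt18 (246 in siPKM, 216 in siCtrl, 0.37), and none of 4 on an endoderm list. The part of these markers in the results was not tested. All ratios are log2 of siPKM over siCtrl on CPM, the counts scaled to the library's coding reads, with 0.5 reads added and the median of all 6532 genes set to 0. Their 95% intervals cover counting error only.

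Ribosomal protein messages had RNA ratios slightly below, and footprint ratios at or slightly above, those of the median gene. In bulk libraries, fewer cells of a type and less RNA per cell cannot be told apart. The 76 genes took 12.3% of coding RNA reads in siPKM and 12.4% in siCtrl, and 9.37% of coding footprints in siPKM and 8.96% in siCtrl. The large subunit took 7.32% of RNA reads in siPKM and 7.50% in siCtrl, and 5.98% of footprints in siPKM and 5.79% in siCtrl. The small subunit took 4.94% of RNA reads in siPKM and 4.91% in siCtrl, and 3.39% of footprints in siPKM and 3.18% in siCtrl. The RNA ratio lay below 0 and the RPF ratio above 0 in 20 of 46 large subunit genes and 17 of 30 small subunit genes, against 12.8% of all genes.

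**Figure D1:**
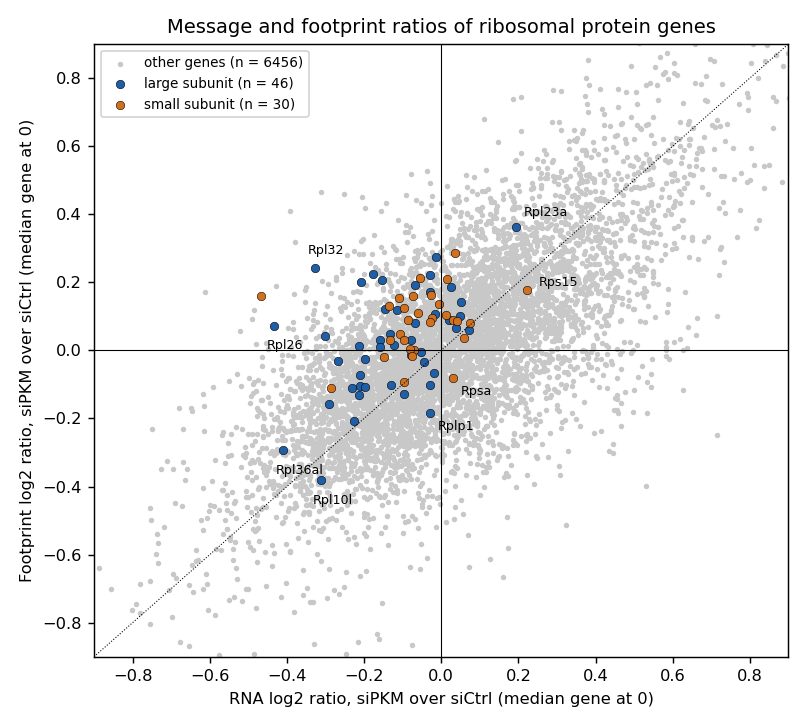
Each point is 1 gene, with its RNA log2 ratio (siPKM over siCtrl) on the horizontal axis and its footprint log2 ratio on the vertical axis; the dotted line marks equal ratios, and 76 other genes lie outside the axes at 0.9. Most ribosomal protein genes lie left of 0 and above the dotted line, with median RNA ratios of -0.13 (large subunit) and -0.07 (small subunit).

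The median RNA ratio was -0.13 (0.916-fold) in the large subunit and -0.07 (0.956-fold) in the small subunit. It was above 0 in 7 of 46 large subunit genes and 9 of 30 small subunit genes, where 50% of all genes are above 0 by construction. No ratio reached 0.32 or more, against 12.4% of all genes, and 4 reached -0.32 or less, against 8.47%. None was past 1.5-fold in RNA in either direction, against 2.88% of all genes higher and 1.24% lower. Rpl26, which sits near the exit of the peptide tunnel, had 577 coding reads in siPKM and 883 in siCtrl (-0.43, interval -0.59 to -0.28). Rpl36al, a copy of Rpl36a, had 2589 reads in siPKM and 3897 in siCtrl (-0.41). These were the lowest RNA ratios of the large subunit, and both came from genes with few reads, for ribosomal protein genes, in both conditions. At the other end, Rps15, a protein of the small subunit head, had 10130 reads in siPKM and 9840 in siCtrl (0.22), and Rpl23a, which offers a docking place for the signal recognition particle at the tunnel exit, had 18266 in siPKM and 18094 in siCtrl (0.19). The next highest were Rpl28 at 0.07 in the large subunit and Rps10 at 0.07 in the small subunit, so these 2 genes stood apart.

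The median RPF ratio was 0.03 in the large subunit and 0.09 in the small subunit. It was above 0 in 27 of 46 large subunit genes and 25 of 30 small subunit genes, against 50% of all genes. Rpl23a was the 1 gene at 0.32 or more, with 21256 footprints in siPKM and 19687 in siCtrl (0.36, interval 0.34 to 0.39), against 11.1% of all genes. Rpl10l, a copy of Rpl10 known for its expression in testis, was the 1 gene at -0.32 or less, with 1063 footprints in siPKM and 1650 in siCtrl (-0.38), against 8.7%. None was past 1.5-fold, against 2.66% of all genes higher and 1.53% lower. High in the small subunit were Rps27 at 0.29, Rps18 at 0.21 and Rps26 at 0.21. Low were Rps27l at -0.11, Rps14 at -0.09 and Rpsa, also known as the laminin receptor, at -0.08. In the large subunit Rpl30 was at 0.27, while Rpl15 was at -0.21 and the stalk protein Rplp1 at -0.18.

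Translation efficiency (TE) is the footprint level over the RNA level, and its change is the log2 ratio of TE in siPKM over siCtrl. It was above 0 in 40 of 46 large subunit genes and 26 of 30 small subunit genes, against 50% of all genes, with a median of 0.13 (1.10-fold) in each subunit. At 0.32 or more were 7 genes, against 3.8% of all genes, 6 of them in the large subunit (Rpl32, Rpl26, Rpl39, Rpl41, Rpl11 and Rpl36a). None was at -0.32 or less, against 6.26%. At 1.5-fold, 1 gene of the small subunit was higher, against 0.184%, and none was lower, against 0.827%.

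Rpl32 had 2677 footprints in siPKM and 2697 in siCtrl on 1336 RNA reads in siPKM and 1898 in siCtrl, a TE change of 0.57 (0.44 to 0.69). Rpl26 had 984 footprints in siPKM and 1115 in siCtrl on the RNA reads given above, a TE change of 0.50 (0.31 to 0.70). In both genes the RNA ratio lay well below 0 while the footprint ratio was above 0. Rpl39, a small protein that lines the tunnel exit, followed at 0.41 (0.30 to 0.51), and Rpl41, a very short peptide, at 0.40 (0.09 to 0.71). With reads of the whole coding sequence in place of the coding body, Rpl39 came to 0.27 and Rpl41 to 0.07. Rpl11, which binds 5S ribosomal RNA together with Rpl5, was the highest gene with deep counts: it had 16620 footprints in siPKM and 17149 in siCtrl on 13598 RNA reads in siPKM and 17141 in siCtrl (0.36, interval 0.31 to 0.40). In the small subunit Rps18, Rps24 and Rps25 were at 0.26 each, and Rps27 at 0.25. Over the whole coding sequence Rps27 came to 0.14, while Rps18 came to 0.24, Rps24 to 0.22 and Rps25 to 0.23.

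There were 10 genes that lay below 0 in TE change. Rplp1 was lowest over the coding body, with 10679 footprints in siPKM and 14445 in siCtrl on 22078 RNA reads in siPKM and 25542 in siCtrl (-0.16, interval -0.20 to -0.11). Rpsa had 23321 footprints in siPKM and 29387 in siCtrl on 51331 RNA reads in siPKM and 56978 in siCtrl (-0.11, interval -0.14 to -0.08). Over the whole coding sequence Rplp1 came to -0.12 and Rpsa to -0.13, and over the whole transcript Rplp1 came to -0.07, Rpsa to -0.10 and Rpl10l to -0.10, so their order depends on the region. In the coding body their RNA ratios were close to 0 (-0.03 in Rplp1, 0.03 in Rpsa) and their footprint ratios were lower. The others were Rpl35a and Rpl10l at -0.07, Rpl18 and Rps15 at -0.05, Rpl13 at -0.03, Rps20 at -0.02, Rpl28 at -0.01 and Rps14 at -0.00. The sign of Rps20 and Rps14 depended on the region. Over the whole coding sequence Rps20 came to 0.01 and Rps14 to 0.03, and over the whole transcript to 0.03 and 0.07.

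**Figure D2:**
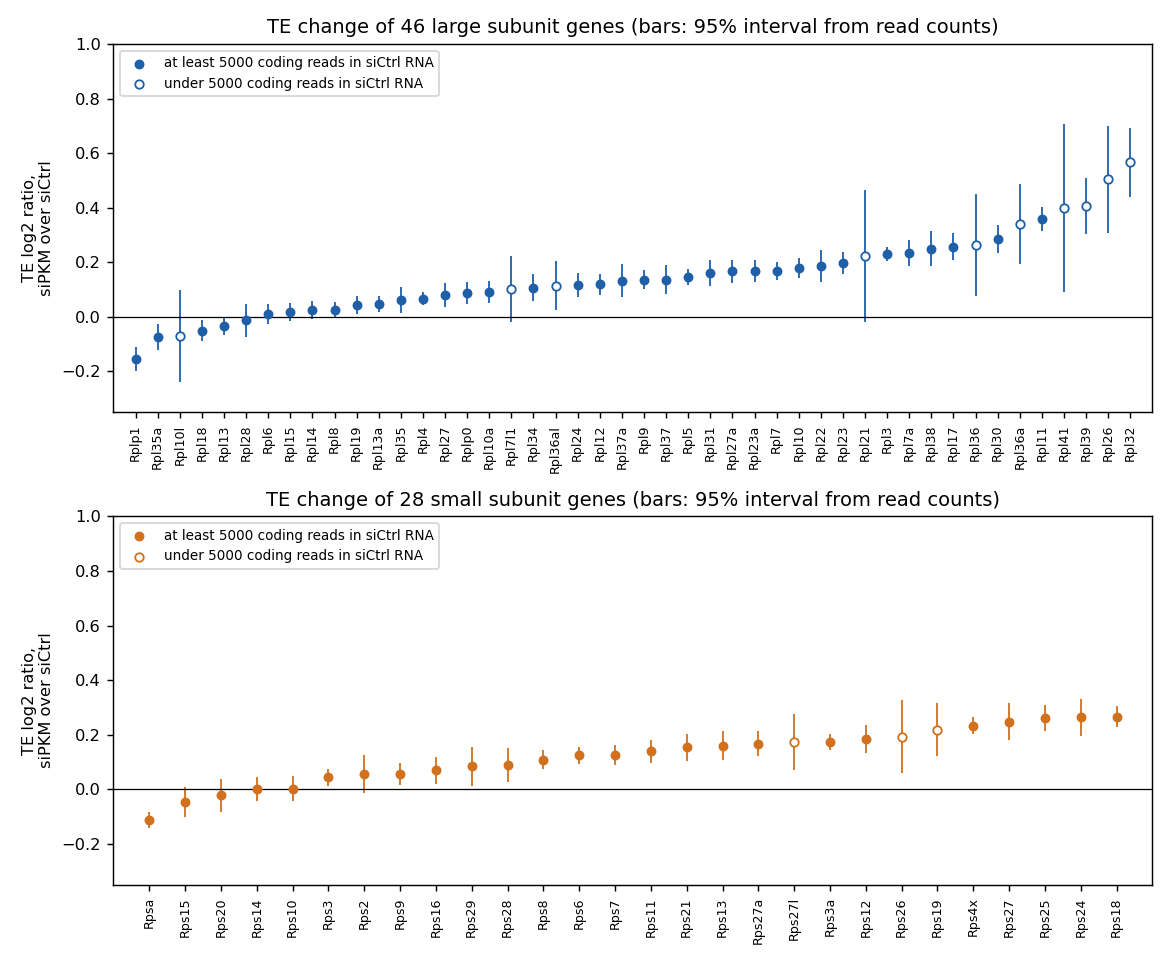
Points give the TE change (log2, siPKM over siCtrl) of each gene, sorted within each subunit, with bars for the 95% interval from read counts; open points are genes with under 5000 coding reads in siCtrl RNA. For the small subunit 28 genes are drawn; the open points hold 5 of the 6 highest values of the large subunit, and Rplp1 and Rpsa are the lowest of their subunits.

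Depth moved with this order. In 14 genes with under 5000 coding reads in siCtrl RNA, a limit set after the counts were seen, the median RNA ratio was -0.25, the median RPF ratio 0.10 and the median TE change 0.24, with 13 of 14 above 0. In the other 62 genes the median RNA ratio was -0.07, the median RPF ratio 0.05 and the median TE change 0.12, with 53 of 62 above 0. Of the 7 genes with a TE change of 0.32 or more, 6 were among the 14, and Rpl11 was the exception. The 14 genes had a median of 1582.5 coding reads in siCtrl RNA (580 to 4451), against a median of 764 over all genes. Rpl26 had no read in the first 15 codons in any of the 4 libraries, as did 0.98% of all genes. Across the 76 genes, TE change and log2 siCtrl RNA reads correlated at -0.51 (Pearson) and -0.35 (Spearman). Across the 62 the values were -0.14 (Pearson) and -0.12 (Spearman). Over all genes they were 0.09 (Pearson) and 0.08 (Spearman), so the negative sign was not general. Both axes use the siCtrl RNA library. Ribosomal protein genes have near-identical copies and many pseudogenes, and how the authors placed reads that match several of them, or used strand, is not given in the sources used here. The part of depth and of read placement in these TE values was not tested.

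By role, most structural groups lay above 0 in TE change. The 8 proteins around the exit of the peptide tunnel, where the new chain meets chaperones and the signal recognition particle, had a median TE change of 0.18, and all 8 were above 0, as were 86.8% of the 76 genes: Rpl26 and Rpl39 as given, Rpl17 0.26, Rpl22 0.19, Rpl23a 0.17, Rpl31 0.16, Rpl35 0.06 and Rpl19 0.04. The stalk proteins, which recruit the translation GTPases, were split, with Rpl12 at 0.12, Rplp0 at 0.09 and Rplp1 at -0.16. Of the pair that carries 5S RNA, Rpl5 was at 0.15, below Rpl11. Along the mRNA channel of the small subunit, Rps26 was at 0.19, Rps28 at 0.09, Rps2 at 0.05, Rps3 at 0.04 and Rps14 at -0.00. Rps6, the substrate of the S6 kinases, was at 0.12. Among subunits known from work on ribosomes of unequal composition, Rps25 was at 0.26, Rpl38 at 0.25 and Rpl10a at 0.09. Rps27a, which is made as a fusion with ubiquitin, was at 0.17. Fau, a ubiquitin-like fusion gene outside the naming rule, was at 0.02.

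The copies of core genes had footprint ratios below 0. Rpl10l was at -0.38, Rpl36al at -0.29, Rps27l, a p53 target, at -0.11 and Rpl7l1 at -0.10, while Rps4x, the X-linked core gene of its protein, was at 0.16. TE changes were -0.07 in Rpl10l, 0.11 in Rpl36al, 0.17 in Rps27l, 0.10 in Rpl7l1 and 0.23 in Rps4x. The second Rps4x row, left out above, had 11665 footprints in siPKM and 14928 in siCtrl on 7406 RNA reads in siPKM and 9148 in siCtrl. Its footprint ratio was -0.10, below 0 unlike that of the row used, and its TE change was 0.02.

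Pyrimidine runs at the start were looked up in RefSeq promoter windows on build GRCm38.p6, which is not the mm9 build of the counts, so no coordinate of the table was used. A run was a C followed by at least 6 bases that are each C or T, on the gene's strand only, from 30 bases before to 50 after the RefSeq start. Of 58 genes with a window, 44 (75.9%) held a run: 29 of 36 in the large subunit and 15 of 22 in the small subunit. Of all 32851 windows, 33.4% held one, and of the 5283 table genes with a window, 34.98%. Median TE change was 0.13 in the 44 genes with a run, 0.10 in the 14 without and 0.17 in the 18 with no window. The stretches below, 30 bases each around the run, which is in capitals, do not all hold the RefSeq start itself. They belong to genes with a run at the high end of TE change (Rpl26, Rpl39, Rpl41, Rpl11, Rps18, Rps24, Rps25) and then at the low end (Rpl35a, Rpl18, Rpl13, Rps15, Rps10).
Rpl26 (chr11:68901581-68901610, plus strand): gtgtagttCTCTTTCCTTTTgcggccatcg
Rpl39 (chrX:37085173-37085202, minus strand): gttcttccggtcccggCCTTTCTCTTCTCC
Rpl41 (chr10:128549119-128549148, minus strand): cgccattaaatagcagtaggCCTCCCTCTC
Rpl11 (chr4:136053358-136053387, minus strand): ccggaagtCTCCCTCTCTCTTCCTgttctc
Rps18 (chr17:33955646-33955675, minus strand): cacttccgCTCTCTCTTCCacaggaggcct
Rps24 (chr14:24490698-24490727, plus strand): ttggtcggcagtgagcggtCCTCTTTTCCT
Rps25 (chr9:44407684-44407713, plus strand): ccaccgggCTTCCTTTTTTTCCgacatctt
Rpl35a (chr16:33056469-33056498, plus strand): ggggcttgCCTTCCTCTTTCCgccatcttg
Rpl18 (chr7:45718064-45718093, plus strand): gcaggccgCTCTTTCCCCgcccactccggc
Rpl13 (chr8:123102326-123102355, plus strand): tgacgtcaCTTCCCTTTCgcctgattttga
Rps15 (chr10:80292448-80292477, plus strand): agcccgtaCTTCCTTTTCCgagtaaccgcc
Rps10 (chr17:27635226-27635255, minus strand): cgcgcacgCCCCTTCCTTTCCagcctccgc
The printed runs have 10 to 16 bases at the high end and 10 to 13 at the low end: Rpl11, at 0.36, has 16, and Rpl35a, at -0.07, has 13. Runs not printed include those of Rpl36a, at 0.34 with 13 bases, and Rps27, at 0.25 with 9. Those of Rpl39, Rpl41 and Rps24 reach the end of the window, so they may be cut short. A match is a description of these letters, not a mapped start site.

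Other gene lists give the setting of these values. The 68 other genes with at least as many siCtrl RNA reads as the median ribosomal protein gene had a median RNA ratio of -0.15, a median RPF ratio of -0.07 and a median TE change of 0.07. TE change was above 0 in 85.3% of those 68, against 86.8% of the ribosomal protein genes, so a TE change above 0 was about as frequent among other highly read genes. Of 19 other TOP messages 18 were above 0, with a median of 0.10; the elongation factor Eef1a1 was at 0.35 and Eef1b2 at 0.26, and Pabpc1, the poly(A)-binding protein, at -0.19. Of 72 mitochondrial ribosomal proteins 50 were above 0 in TE change (median 0.07), with a median RNA ratio of -0.14 and a median RPF ratio of -0.09. Of 38 ribosome assembly factors 19 were above 0 (median -0.01), with a median RPF ratio of -0.10. Of 11 regulators of TOP translation and S6 kinases 2 were above 0 (median -0.19). Larp1 had 3349 footprints in siPKM and 4734 in siCtrl on 1583 RNA reads in siPKM and 1537 in siCtrl, a TE change of -0.47 (interval -0.59 to -0.35).

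TE levels were spread widely between ribosomal protein genes in both conditions. As log2 of footprint CPM over RNA CPM, the median was -0.09 in siPKM and -0.22 in siCtrl for the large subunit, -0.32 in siPKM and -0.55 in siCtrl for the small subunit, and -0.18 in both for all genes. Over the 76 genes the levels in siPKM and siCtrl had a Spearman correlation of 0.97. Rpl41 was lowest, at -2.29 in siPKM and -2.67 in siCtrl, but this rests on 202 coding-body footprints in siPKM and 206 in siCtrl. Over its whole coding sequence it was the highest of the 76, at 1.35 in siPKM and 1.30 in siCtrl. Rps12 was at -2.13 in siPKM and -2.30 in siCtrl and was the lowest over the whole coding sequence, at -2.01 in siPKM and -2.12 in siCtrl. All 3 stalk proteins were low: Rplp0 at -1.67 in siPKM and -1.73 in siCtrl, Rplp1 at -1.33 in siPKM and -1.15 in siCtrl, and Rpl12 at -1.09 in siPKM and -1.18 in siCtrl. Rpsa was at -1.42 in siPKM and -1.28 in siCtrl. Over the coding body, the highest of the large subunit were Rpl28 at 0.89 in siPKM and 0.92 in siCtrl, and Rpl6 at 0.79 in siPKM and 0.81 in siCtrl. The highest of the small subunit was Rps13, at 0.65 in siPKM and 0.51 in siCtrl.

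**Figure D3:**
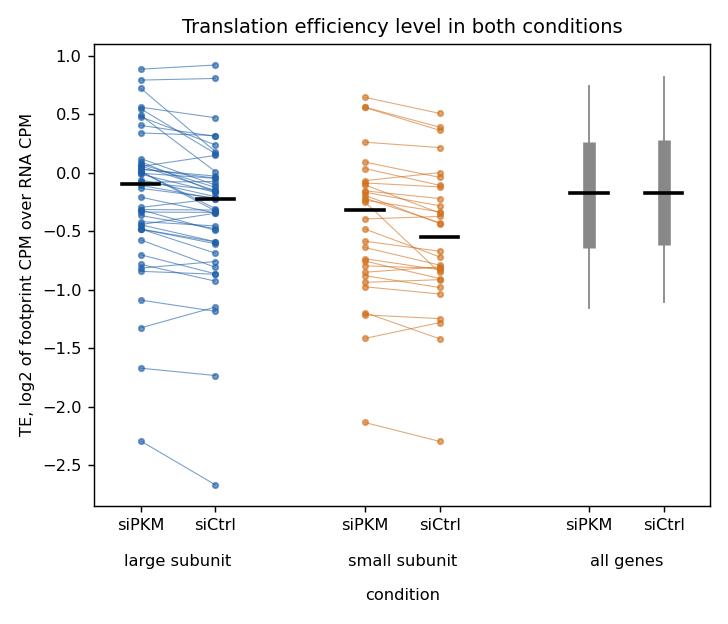
Lines join each gene's TE level (log2 of footprint CPM over RNA CPM) in siPKM and siCtrl; black bars are medians, and for all genes the thick bar spans the quartiles and the thin line the 10th to 90th percentile. The medians of both subunits are higher in siPKM (-0.09 and -0.32) than in siCtrl (-0.22 and -0.55), and genes largely keep their order.

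Footprints were concentrated near the start codon of these short messages. The first 15 codons held a median of 15.4% of a gene's footprints in siPKM and 15.9% in siCtrl in the large subunit, 17.6% in siPKM and 18.02% in siCtrl in the small subunit, and 4.24% in siPKM and 4.32% in siCtrl over all genes. The same codons held a median of 7.20% of RNA reads in siPKM and 7.28% in siCtrl in the large subunit, and 9.15% in siPKM and 9.28% in siCtrl in the small subunit. Footprints in these codons were also taken over those in the gene's coding body, and divided by the same ratio in RNA. The median log2 of this enrichment was 1.15 in siPKM and 1.16 in siCtrl in the large subunit. It was 1.03 in siPKM and 1.04 in siCtrl in the small subunit, and 0.87 in siPKM and 0.85 in siCtrl over all genes. The share of footprints was lower in siPKM in 31 of 46 large subunit genes and 18 of 30 small subunit genes, against 50.9% of all genes. Rpl41, with few codons, had 84.3% of its footprints in this window in siPKM and 86.9% in siCtrl, Rps27 51.6% in siPKM and 55.8% in siCtrl, and Rpl36a 48.7% in siPKM and 51.7% in siCtrl.

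The 5' UTR held few footprints in most members and many in a few. The median share was 1.05% in siPKM and 1.09% in siCtrl in the large subunit, 0.913% in siPKM and 0.949% in siCtrl in the small subunit, and 3.71% in siPKM and 3.85% in siCtrl over all genes. The 5' UTR held 4.44% of RNA reads in siPKM and 4.97% in siCtrl in the large subunit (medians), and 5.92% in siPKM and 6.30% in siCtrl in the small subunit, more than the 2.57% in siPKM and 2.67% in siCtrl over all genes. At least 10% of footprints lay there in 7 members in each condition, against 23.5% of all genes in siPKM and 24.8% in siCtrl. Rps20, a protein of the small subunit head, had 32.6% in siPKM and 32.5% in siCtrl. Rplp1 had 23.2% in siPKM and 20.8% in siCtrl, Rps12 18.7% in siPKM and 21.5% in siCtrl, and Rpl35a 16.8% in siPKM and 15.9% in siCtrl. Rpl21 had 16.3% in siPKM and 13.8% in siCtrl, Rps27l 11.3% in siPKM and 12.8% in siCtrl, and Rpl39 10.6% in siPKM and 11.5% in siCtrl. These 7 genes had TE levels in siPKM of between -2.13 (Rps12) and 0.55 (Rpl39).

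**Figure D4:**
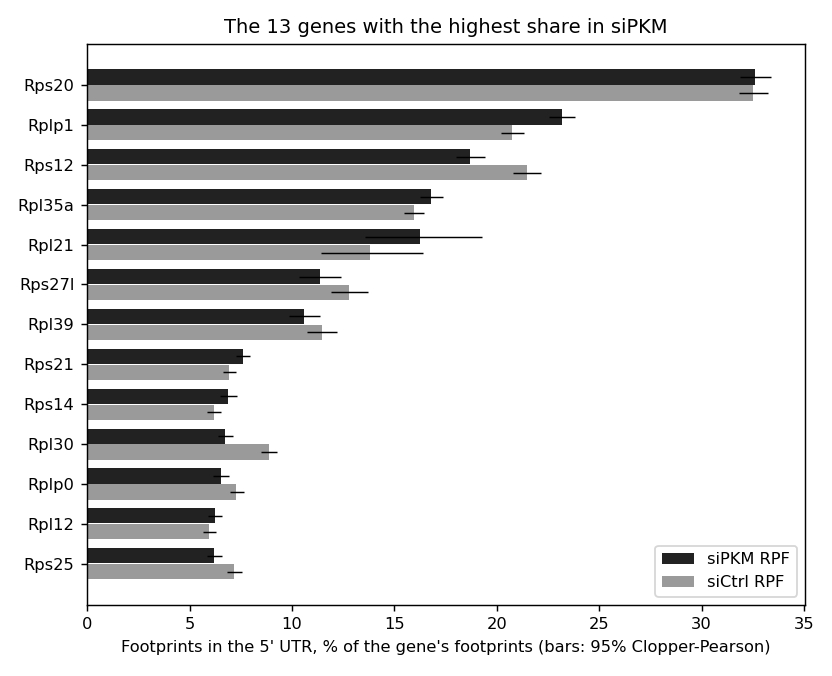
Bars give the share of a gene's footprints in the 5' UTR, in percent, for the 13 ribosomal protein genes with the highest share in siPKM, with siPKM above siCtrl and 95% Clopper-Pearson intervals for counting error. Rps20 is highest at 32.6% in siPKM and 32.5% in siCtrl, and 7 genes are at or above 10% in both.

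PKM2 CLIP stops were scarce on ribosomal protein messages relative to their abundance. The 76 genes held 0.651% and 0.682% of stops in replicates 1 and 2, against 10.2% of siCtrl RNA reads on whole transcripts. As log2 of CLIP CPM over siCtrl RNA CPM, the median was -4.77 in the large subunit and -4.32 in the small subunit, and 0.08 over all genes. At or below -2 were 39 of 46 large subunit genes and 27 of 30 small subunit genes, against 6.05% of all genes. The 68 other highly read genes had a median of -1.84, other TOP messages -2.19, mitochondrial ribosomal proteins -0.99 and assembly factors -0.79. The CLIP ratio and log2 siCtrl RNA reads had a Spearman correlation of -0.39 over all genes and -0.33 over the 76. The ratio itself holds that RNA level. CLIP and RNA came from different cells, and the ratio has no control CLIP. The part of RNA level and of read placement in the CLIP ratio was not tested.

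Rpl8, a protein of the peptidyl transferase centre, carried 418 and 481 stops (ratio -1.90 ± 0.15, SD, n = 2). Rpl4, in the tunnel wall, had 385 and 412 (-2.35 ± 0.08), Rps3, at the mRNA entry, 362 and 350 (-2.35 ± 0.02), and Rpl22 143 and 179 (-1.78 ± 0.24). These well covered genes lay below the 0.08 of the median gene in both replicates. Rps3a had 11 and 9 stops (-7.46 ± 0.18), Rpl9 9 and 9 (-7.21 ± 0.01), Rpl3 18 and 15 (-6.95 ± 0.17) and Rps4x 19 and 12 (-6.51 ± 0.44). The second Rps4x row, left out above, had more stops, 116 and 127, on 11503 siCtrl RNA reads of the whole transcript. The low Rps4x ratio therefore holds for 1 row of that symbol only. Some genes had 3 or fewer stops in a replicate, 3 stops being 4.43 and 4.47 CPM in the replicates. Rps27 had 0 and 2, Rps28 5 and 0, Rpl24 2 and 2, Rpl28 1 and 4, Rpl11 3 and 6, Rpl23a 3 and 5, Rpl35 7 and 3, and Rpl36a 6 and 3. At the top, Rps26 had 75 and 73 stops (-0.04 ± 0.02), Rpl21 41 and 51 (-0.07 ± 0.23), Rpl32 74 and 56 (-0.44 ± 0.27) and Rpl7l1 151 and 152 (-0.79 ± 0.02). These 4 were among the 14 genes with under 5000 siCtrl coding reads, whose median ratio was -2.10, against -5.19 in the other 62.

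**Figure D5:**
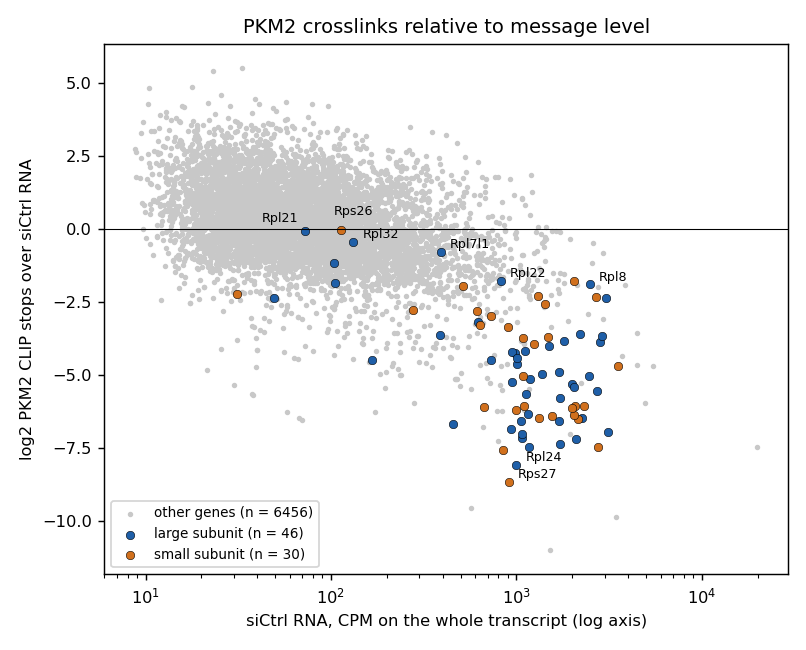
Each point is 1 gene, with siCtrl RNA on the whole transcript in CPM on a log axis and log2 of mean CLIP stops over that RNA level on the vertical axis; values of genes with few stops depend on the 0.5 stops added. Most ribosomal protein genes lie below -2, and Rps26 and Rpl21 lie near 0 at lower RNA levels.

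TE change and the CLIP ratio had a Spearman correlation of -0.08 over the 76 genes and -0.38 over the 62 with at least 5000 reads, against -0.33 over all genes; all use the siCtrl RNA library. In the 3' UTR, RNA reads were a median of 4.94% in siPKM and 5.34% in siCtrl for the large subunit and 3.91% in siPKM and 4.23% in siCtrl for the small subunit, against 26.3% in siPKM and 26.2% in siCtrl over all genes.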

How the data were processed

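The authors deposited raw counts of RNA and footprint reads per transcript region and of CLIP stops per transcript, with log2 values deposited by the authors beside them, per the file headers. The submitters' processing notes name cutadapt, Bowtie2 and mm9; their settings are not given in the sources used here. The 3 log2 columns for the stop codon held errors and were not used. Rows repeating a symbol were dropped, keeping the row with the most reads. Counts were turned into CPM of the table's sum (pandas 2.3.3, numpy 2.4.6, scipy 1.17.1), 0.5 added, and ratios centred on the median gene. Every gene had at least 151 coding reads per library. With 1 library per siRNA group and kind, no test was run. Genes were named by rule: the 5 highest and lowest per subunit and measure, structural lists, and extremes of other lists; sequences and the 5000-read limit were chosen after values were seen. Members and lists were chosen with earlier results of these data known. Alternatives included edgeR 4.0.16 TMM factors. The computation was tested on simulated data. Some genes are not reported here by name.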

Additional observations from a re-analysis of the deposited data

How the results depend on the processing

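Of 311 recomputed values, 147 single-gene and 132 summary values were counted as unchanged. For medians and single genes this meant a move of no more than their spread. The summary values also include counts of genes above 0, which have no spread. The median RPF ratio of the large subunit came to -0.000518 with the whole coding sequence, below 0 where the coding body gave 0.03. It was counted as reversed, though it moved by less than its spread of 0.0325. Without centring, the median RNA ratio was -0.0798 (large, 15 above 0) and -0.0182 (small), against 0.0468 over all genes. With the authors' deposited log2 values, also not centred, it was -0.0833 (large, 14 above 0) and -0.0217 (small), against 0.0432 over all genes. Relative to the all-gene median, it was -0.1267 (large) and -0.065 (small) without centring. The authors' values gave -0.1265 (large) and -0.0649 (small) on that scale. In genes with at least 5000 reads, an alternative chosen after seeing the data, the median RNA ratio was -0.0729 (large). With the whole coding sequence, median TE level was -0.00121 (siPKM, large), -0.12 (siCtrl, large) and -0.51 (siCtrl, small). With coding reads as the denominator, the small subunit's share in the first 15 codons was 18.9% in siPKM and 18.6% in siCtrl. The median CLIP ratio was -4.51 (large) and -4.06 (small) with the authors' deposited enrichment, -5.19 (large) and -5.55 (small) with at least 5000 reads, and -4.68 (small) over coding-body RNA. Leaving out 1 CLIP replicate gave -4.04 to -4.65 in the small subunit. Apart from the shift by centring, the cause of these differences was not tested. No paired analysis was possible because siPKM and siCtrl had a single library per kind and the CLIP replicates form 1 group. Depth limits the 14 genes with fewer reads than the other ribosomal protein genes, and CLIP ratios resting on few stops.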
